A study of Mus musculus with 24 samples.

Results

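The cyclin-dependent kinase (CDK) inhibitors together with the tumour suppressors p53 and Rb were examined in 7 mouse cell lines, 5 from a melanoma and 2 from a leukemia model of tumour dormancy. The set held 10 genes, chosen by gene name: the INK4 inhibitors Cdkn2a, Cdkn2b, Cdkn2c and Cdkn2d, the CIP/KIP inhibitors Cdkn1a, Cdkn1b and Cdkn1c, and Trp53, Mdm2 and Rb1. All 10 had at least 1 probe, 15 probes in all, among the 22907 named genes of a 1-colour Agilent mouse array. RNA of melanoma cells was labelled B16-M (the parental GFP-marked B16F1 line, 3 arrays), B16-D (cells recovered after dormancy in mice vaccinated with irradiated GM-CSF-producing cells, then grown in culture, 4 arrays), and B16-D-733 (4 arrays), B16-D-735 (3 arrays) and B16-D-739 (3 arrays). The study describes 3 second-generation dormant lines from a brain site, and the titles do not say which of them carries which of these numbers. The leukemia RNA was labelled M0-p20 (4 arrays) and J365-p20 (3 arrays). The study compares the DA1-3b leukemia with cells recovered from it after dormancy in animals vaccinated with IL-12-producing cells. M0-p20 was taken here as the parental and J365-p20 as the dormant line from the titles and that single comparison, since no label states it. Each group was 1 line, and nothing in the labels says whether its arrays came from separate cultures, so the p-values measure the spread between arrays, which may be technical. The titles of B16-D replicates 1 to 3 and of B16-D-733 replicates 1 to 3 carry a date and those of the other 18 arrays do not, so B16-M has no dated array, and what the date stands for is not stated. The titles of B16-D-733 replicates 1 and 3 give the same replicate name. Both lie on slide 3, and over 20817 genes their difference had an SD of 0.298, the smallest of the 27 pairs of arrays of a line (the others ran from 0.377 to 0.930). Whether they hold RNA of 1 sample was not tested. Fits with the title date as a block, and with these 2 arrays averaged, were chosen after seeing the data and are given where they changed a call.

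The proteins encoded by these genes sit on a single control point of cell division. INK4 proteins bind CDK4 and CDK6 and keep them from D-type cyclins, CIP/KIP proteins bind cyclin-CDK complexes, and both keep Rb in the form that holds E2F transcription factors back from S-phase genes. p53 switches on Cdkn1a and Mdm2, Mdm2 in turn marks p53 for degradation, and Cdkn2a encodes, besides the INK4 protein p16, the unrelated protein Arf, which binds Mdm2. Loss of the Cdkn2a and Cdkn2b locus is a classical lesion of melanoma and of some leukemias.

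Cdkn2a and Cdkn2b are neighbours on chromosome 4, detected in both leukemia lines and in no melanoma line. Their promoter windows from RefSeq (build GRCm38.p6) are shown for that reason, each spanning 250 bases before to 50 after a transcript start on the minus strand, written 5′ to 3′. Capitals mark an E2F-type sequence, that is TTTCCCGC, TTTCGCGC, TTTGCCGC or TTTGGCGC on either strand.
Cdkn2a, upstream start (that of Arf), chr4:89294570-89294869: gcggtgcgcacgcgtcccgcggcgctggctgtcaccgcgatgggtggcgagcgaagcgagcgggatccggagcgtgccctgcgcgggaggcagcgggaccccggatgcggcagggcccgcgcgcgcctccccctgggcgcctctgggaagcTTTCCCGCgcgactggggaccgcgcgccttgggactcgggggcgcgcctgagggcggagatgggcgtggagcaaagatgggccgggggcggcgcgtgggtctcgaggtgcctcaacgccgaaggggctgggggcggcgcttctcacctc
Cdkn2a, downstream start (that of p16), chr4:89282143-89282442: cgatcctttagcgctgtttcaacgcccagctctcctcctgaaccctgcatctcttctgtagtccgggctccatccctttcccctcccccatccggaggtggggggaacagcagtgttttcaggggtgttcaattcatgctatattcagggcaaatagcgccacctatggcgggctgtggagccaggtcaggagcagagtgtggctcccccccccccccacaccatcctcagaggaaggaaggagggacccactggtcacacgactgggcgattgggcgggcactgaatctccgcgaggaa
Cdkn2b, chr4:89310983-89311282: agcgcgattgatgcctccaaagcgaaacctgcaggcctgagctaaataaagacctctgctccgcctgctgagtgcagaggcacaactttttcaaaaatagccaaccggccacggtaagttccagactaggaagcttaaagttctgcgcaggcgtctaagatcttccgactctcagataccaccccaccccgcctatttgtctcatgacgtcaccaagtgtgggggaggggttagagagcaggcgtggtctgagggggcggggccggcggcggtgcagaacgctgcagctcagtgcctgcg
The upstream Cdkn2a window held 45 CpG dinucleotides and 77% G or C, the downstream window 12 CpG and 60.3%, and the Cdkn2b window 18 CpG and 57.7%, against a median of 7 CpG over 32851 promoter windows of 300 bases. RefSeq gave 11 such windows for 8 of the 10 genes, all but Cdkn1c and Rb1. An E2F-type sequence was present in 1 of the 11, the upstream Cdkn2a window printed above, and in 2.26% of all windows. A GC box (GGGCGG on either strand) was present in 8 of the 11 and in 35.7% of all windows. These are matches of letters, and the arrays do not measure binding or methylation at them.

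Signals are given as log2 of the background-corrected brightness of the brightest probe of a gene, minus the 75th percentile of the same array, so 0 is the level of that percentile. A probe of one gene cannot be compared in level with a probe of another. Well above background is the scanner software's own flag. The share of spots so flagged was 46.0 to 55.8% on 23 arrays and 90.3% on B16-D replicate 2, which stood apart and was left out of the fits, its values being given beside the results it touches. All 9 melanocyte markers were well above background on every melanoma array, and 8 of 9 haematopoietic markers on every leukemia array (all but Cd33). Each leukemia array also had 3 or 4 of the 9 melanocyte markers above background. Mitf (means of 0.66 in M0-p20 and 1.83 in J365-p20), Sox10 (-4.03 and -4.33) and Tyr (-3.57 and -3.28) were so on all of them. The haematopoietic list was not silent in the melanoma lines. Of the 16 melanoma arrays used, Itgam (1.43 to 2.82) and Il3ra (0.68 to 2.92) were above background on all 16, Coro1a on 15, Csf2rb on 14, Spi1 on 1, and Ptprc, Laptm5, Vav1 and Cd33 on 0. The 24 arrays lay on 3 slides.

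**Figure D1:**
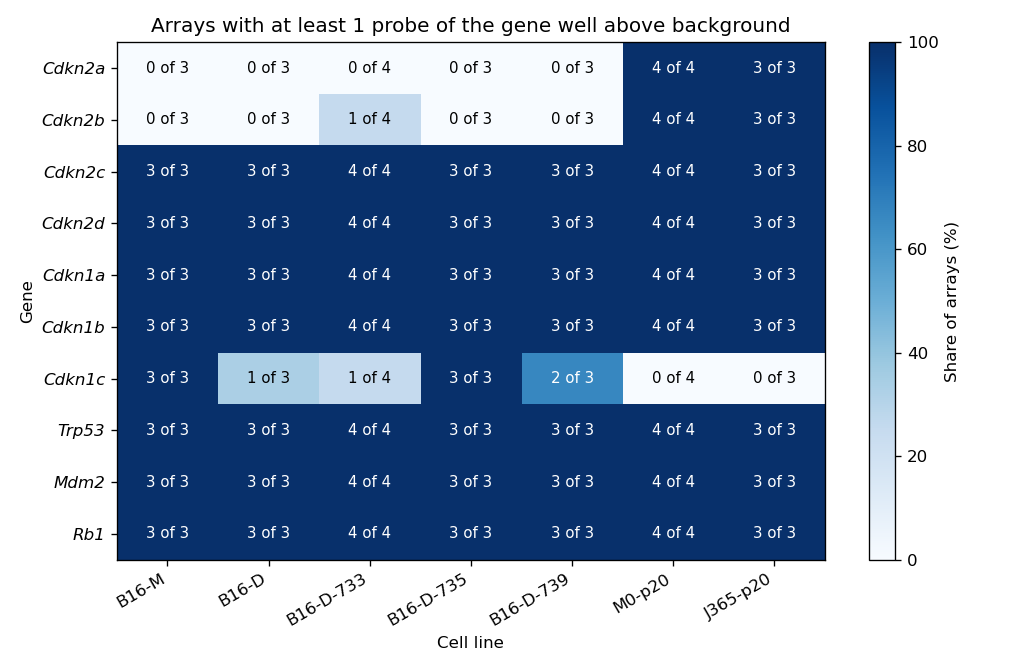
Number of arrays of each line (columns, B16-D without replicate 2) on which at least 1 probe of each gene (rows) was well above background, with the share of arrays as colour. Cdkn2a was above background on 0 melanoma arrays and on all 7 leukemia arrays, and Cdkn1c on 0 leukemia arrays and on 3 of 3 arrays of B16-M and of B16-D-735.

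The lines differed in which inhibitors could be detected at all. A gene was counted as detected in a line where a probe was well above background on at least 50% of its arrays. By that count B16-M, B16-D-735 and B16-D-739 had 8 of the 10 genes, B16-D and B16-D-733 had 7, and both leukemia lines had 9. Cdkn2a and Cdkn2b were undetected in all 5 melanoma lines, and Cdkn1c in B16-D, B16-D-733 and both leukemia lines. The Cdkn1c calls depended on the rule: with B16-D replicate 2 included the gene counted as detected in B16-D, and by the software's weaker flag (positive and significant) it was detected in all 7 lines, whereas Cdkn2a and Cdkn2b remained undetected in the 5 melanoma lines under both. The other 7 genes were above background on all 23 arrays. In RNA of whole cultures, fewer cells with a transcript and less transcript per cell cannot be told apart.

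Of the INK4 inhibitors, Cdkn2a was at -7.07, -7.31 and -7.07 on the B16-M arrays, none well above background, and between -7.37 and -6.42 on the 13 arrays of the dormant melanoma lines. M0-p20 had -1.40, -1.08, -1.33 and -2.22, and J365-p20 had 0.64, 1.04 and 0.76, all well above background. The leukemia and melanoma arrays did not overlap, and M0-p20 exceeded B16-M at least 10.5-fold, the bound being set by the dimmest signal that counts as above background on the B16-M arrays. Between the leukemia lines the groups did not overlap either. Cdkn2a was higher in J365-p20 than in M0-p20 by 2.32 on the log2 scale (SE 0.28, limma adjusted p = 0.00848). It was the only one of the 9 genes tested in that comparison to pass, while 1.07% of all genes tested did and 0.488% were higher. Within slides 1, 2 and 3 the difference was 1.84, 2.45 and 2.37. It passed in 14 of the 16 alternatives in which it was tested. The call was kept without 6 of the 7 arrays in turn and lost without J365-p20 replicate 1 (2.21, limma adjusted p = 0.0611). It was also lost with the replicate block, whose values are given under the dependence on processing. The second probe of the gene was not well above background on any M0-p20 array (-7.01 to -5.53) and was so on all 3 J365-p20 arrays (-3.78, -3.06 and -3.82). Both probes carry the accession of the same transcript of the gene, and p16 and Arf cannot be told apart with them.

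Cdkn2b, which encodes the INK4 protein p15, was at -0.89, 0.35, 0.32 and -0.03 in M0-p20 and at 0.13, 0.86 and 0.78 in J365-p20. The leukemia lines overlapped, with a difference of 0.65 (SE 0.35, limma adjusted p = 0.874). In B16-M it was at -7.01, -6.99 and -7.12, none above background, and M0-p20 exceeded B16-M at least 28.6-fold. Of the dormant melanoma arrays used, only B16-D-733 replicate 3 was above background, at -4.99 on the brighter probe, while the second probe of that array was not, at -6.19. B16-D replicate 2 was the exception for both genes, with Cdkn2a at -1.89 and Cdkn2b at -3.27, both flagged as above background. On that array 7 of 9 haematopoietic markers were so flagged, against 2 to 5 on the other melanoma arrays, but Ptprc and Vav1 were not, at -7.19 and -5.12. Of 6 fibroblast markers 5 were flagged on it, against 1 to 3 on the other melanoma arrays. The part of that array's high share of flagged spots in these values was not tested.

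Cdkn2c, the INK4 protein p18, was at 2.36, 2.50 and 2.69 in B16-M. It was at 1.55, 1.98 and 1.94 in B16-D, at 1.63, 1.88, 2.18 and 2.02 in B16-D-733, and at 1.70, 1.82 and 1.97 in B16-D-739. In B16-D-735 it was at 2.28, 2.44 and 2.54. The arrays of B16-D, B16-D-733 and B16-D-739 all lay below those of B16-M and of B16-D-735, while the latter pair overlapped. Against B16-M, Cdkn2c fell by 0.69 in B16-D (SE 0.16, limma adjusted p = 0.0345), by 0.59 in B16-D-733 (SE 0.15, limma adjusted p = 0.0397) and by 0.68 in B16-D-739 (SE 0.16, limma adjusted p = 0.0339), and the B16-D-735 difference was -0.10 (SE 0.16, limma adjusted p = 0.928). These comparisons share the 3 B16-M arrays. Within slides the difference lay between -0.92 and -0.41 in the 3 lines. B16-D replicate 2, at 1.65, lay with its line, and the value with it was -0.73. The calls were close to the threshold: leaving out 1 array at a time kept 1 of 6, 2 of 7 and 1 of 6 of them, with adjusted p-values up to 0.168 and differences from -0.77 to -0.49. With B16-D-733 replicates 1 and 3 averaged the call in that line was lost (-0.59, limma adjusted p = 0.0801). In the leukemia lines Cdkn2c was between 1.77 and 2.24, with a difference of 0.13 (SE 0.16, limma adjusted p = 0.975).

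Cdkn2d, the INK4 protein p19 (a different protein from Arf), had a narrower range. It was at 4.15, 4.24 and 4.27 in B16-M and at 3.75, 3.69 and 3.88 in B16-D, without overlap, and fell by 0.44 in B16-D (SE 0.10, limma adjusted p = 0.0299). That call was kept without 2 of the 6 arrays in turn and lost with the title date as a block (-0.38, limma adjusted p = 0.105). B16-D replicate 2, at 3.39, lay below the other 3. B16-D-733 (4.07, 3.98, 3.75 and 3.88) and B16-D-739 (4.06, 3.98 and 4.04) lay below B16-M without overlap but did not pass, with differences of -0.30 (limma adjusted p = 0.0948) and -0.19 (limma adjusted p = 0.445). B16-D-735 was at 4.16, 4.13 and 4.26. Both leukemia lines spanned 3.54 to 4.37.

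**Figure D2:**
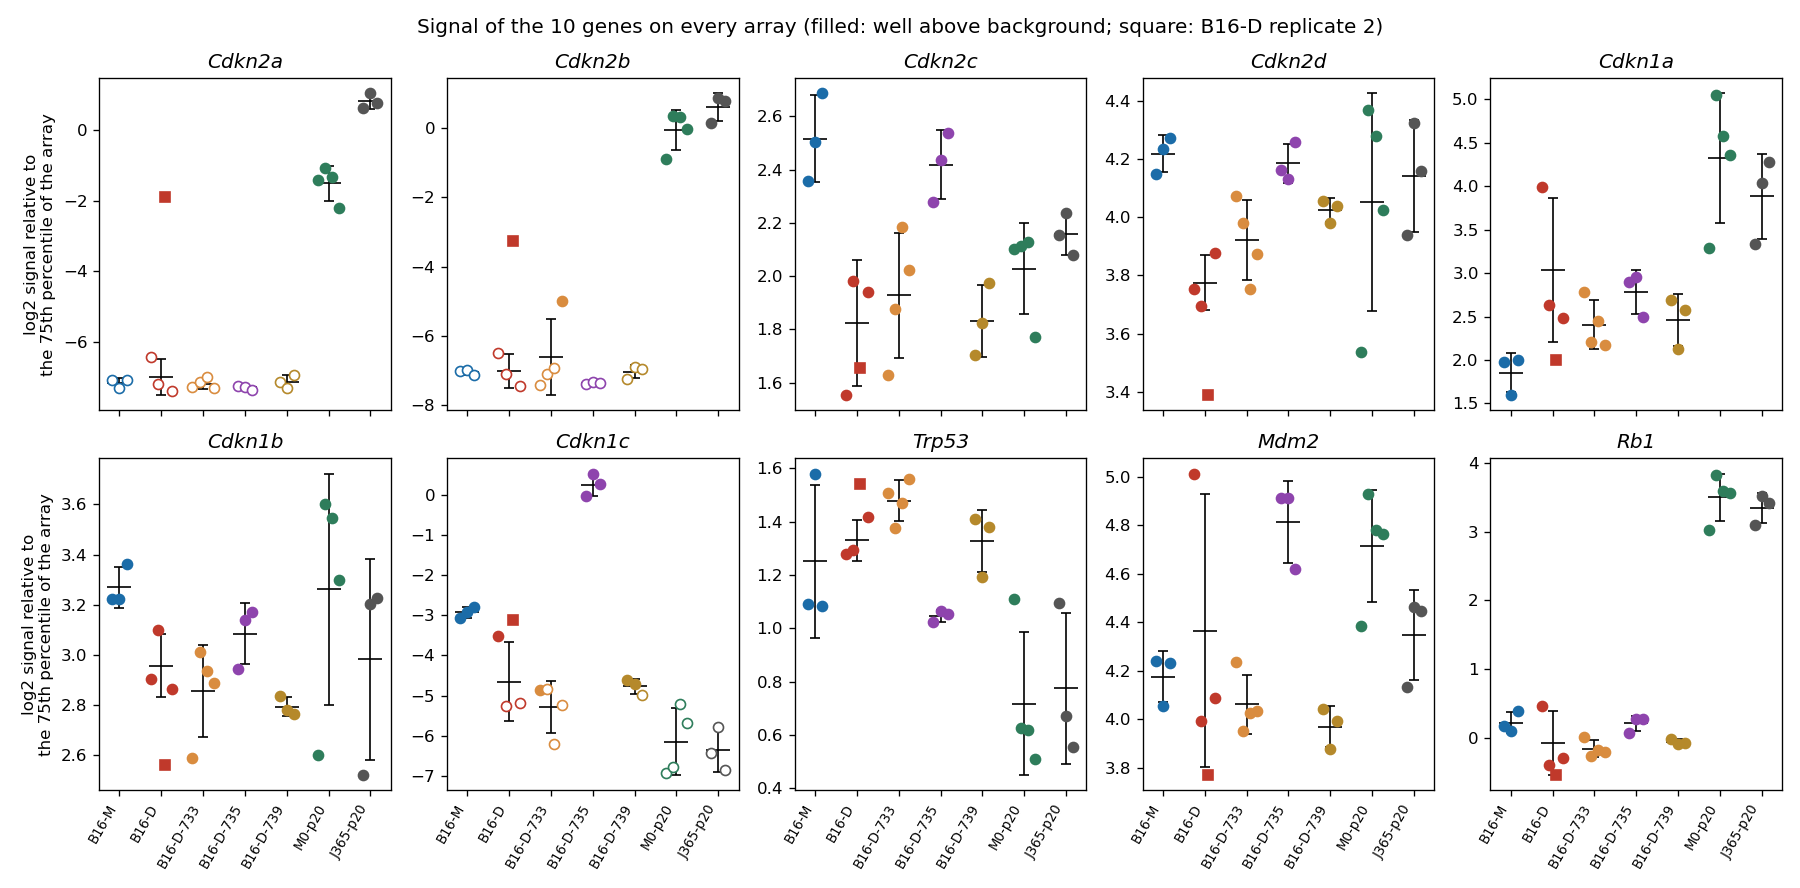
Signal of the brightest probe of each of the 10 genes on every array, as log2 relative to the 75th percentile of the array, by line, with the mean and SD of each line (black) without B16-D replicate 2 (square). Filled symbols are well above background. Cdkn2a and Cdkn2b sit near -7 in the melanoma lines and above -2.3 in the leukemia lines. Exceptions, which lie higher, are B16-D replicate 2 in both genes and B16-D-733 replicate 3 in Cdkn2b. Cdkn1c is raised in B16-D-735 (-0.04 to 0.52), and Rb1 is between 3.02 and 3.83 in the leukemia lines against at most 0.46 in the melanoma lines.

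Of the CIP/KIP inhibitors, Cdkn1c (p57, an imprinted gene expressed mainly in development) varied most among the melanoma lines. B16-D-735 had -0.04, 0.52 and 0.27. B16-M had -3.07, -2.92 and -2.80. B16-D had -3.52, -5.26 and -5.19, of which only the first was above background, B16-D-733 had -4.86 above background with -4.83, -6.21 and -5.25 not above it, and B16-D-739 had -4.61 and -4.71 above background with -4.98 not above it. The B16-D-735 arrays thus lay above all other arrays, those of B16-M came next, and the other 3 lines overlapped at the bottom, where much of the signal had only an upper bound. Leukemia arrays ran from -6.92 to -5.21 with none above background, and B16-M exceeded M0-p20 at least 3.33-fold.

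Cdkn1c rose in B16-D-735 against B16-M by 3.18 (SE 0.43, 9.07-fold, limma adjusted p = 0.000545), with 3.32, 2.88 and 3.34 within slides 1, 2 and 3. It was the only one of 8 genes tested to pass in that comparison, where 5.03% of all genes did and 3.07% were higher. Against the mean of its sister lines B16-D-733 and B16-D-739 it was higher by 5.28 (SE 0.36, limma adjusted p = 1.09e-06) and against B16-D by 4.91 (SE 0.43, limma adjusted p = 1.18e-05). All 3 differences kept their call without any single array and under every other setting in which the gene was tested. Their size did not: with normexp background correction they were 2.40, 3.18 and 3.05. The sister lines had 3 of 7 arrays above background and B16-D 1 of 3. With the other arrays set at their lowest signal well above background, B16-D-735 was at least 32.8-fold higher than the sister lines and at least 27.4-fold higher than B16-D. These bounds hold for the signal without normexp only, since the normexp differences were smaller. Cdkn1c fell against B16-M in B16-D-733 by 2.36 (SE 0.40, limma adjusted p = 0.00332), kept without each of the 7 arrays in turn, and in B16-D-739 by 1.84 (SE 0.43, limma adjusted p = 0.0315), a call lost without any single array of the 6. In B16-D it fell by 1.73 (SE 0.43, limma adjusted p = 0.0449). That call was lost in 5 of 6 leave-one-out fits and with replicate 2 of the line, at -3.12 and above background (-1.34, limma adjusted p = 0.189), and with B16-D-733 replicates 1 and 3 averaged (-1.73, limma adjusted p = 0.0591). With arrays not above background treated in the same way, the lines were lower than B16-M at least 3.86-fold (B16-D-733, 1 of 4 arrays above), 3.39-fold (B16-D-739, 2 of 3) and 3.02-fold (B16-D, 1 of 3). The title date ran with the difference in B16-D and less so in B16-D-733, while B16-D-739, like B16-M, has no dated array. The undated B16-D array differed from B16-M by -0.59 and the dated pair by -2.30, and in B16-D-733 the differences were -1.93 and -2.50. With the date as a block they were -0.99 in B16-D, which did not pass (limma adjusted p = 0.183), and -1.53 in B16-D-733 (limma adjusted p = 0.0495).

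Some fibroblast markers moved with Cdkn1c in B16-D-735. On each of its 3 arrays 3 of the 6 markers were above background (Col1a1, Col1a2 and Dcn), against 1 to 3 on the other melanoma arrays used. Their summed level was 0.13 to 0.60 on the log2 scale in B16-D-735 and -1.82 to -0.39 on the others (0.17 on B16-D replicate 2). Dcn was at -1.94 ± 1.09 (SD, n = 3) in B16-D-735 and not above background on any other array used. Col3a1, Lum and Pdgfra were not above background on any B16-D-735 array. Pdgfra went the other way, with a mean of -6.12 in B16-D-735 against -3.76 in B16-M. It was above background on 3 of 3 B16-M, 2 of 3 B16-D, 2 of 4 B16-D-733 and 2 of 3 B16-D-739 arrays. The part of these markers in the Cdkn1c result was not tested. Over the 16 melanoma arrays, whose 5 lines are their main common source of variation, the genes with a pattern most like that of Cdkn1c among 11863 above background throughout were Uqcr11 (Pearson r = 0.98), Il18 (0.97) and Etl4 (0.97).

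Cdkn1a (p21, the p53 target that links DNA damage to arrest) was at 1.98, 1.60 and 2.00 in B16-M. All arrays of the dormant lines lay above these: B16-D had 3.99, 2.63 and 2.49, B16-D-733 had 2.79, 2.20, 2.45 and 2.18, B16-D-735 had 2.90, 2.96 and 2.50, and B16-D-739 had 2.69, 2.13 and 2.57. No comparison with B16-M passed in the fit without blocks, however. The differences were 1.18 (SE 0.33, limma adjusted p = 0.0732) in B16-D, 0.55 (SE 0.31, limma adjusted p = 0.421) in B16-D-733, 0.93 (SE 0.33, limma adjusted p = 0.154) in B16-D-735 and 0.61 (SE 0.33, limma adjusted p = 0.483) in B16-D-739. B16-D replicate 0 set much of the first, which was 0.71 without it, and B16-D replicate 2, at 2.00, lay level with B16-M, while the second probe of that array, at -0.88, lay above B16-M (-3.99 to -3.15). The undated B16-D array differed from B16-M by 2.13 and the dated pair by 0.71, and in B16-D-733 the values were 0.93 and 0.42. With the title date as a block the difference was 1.81 in B16-D (limma adjusted p = 0.00299), 1.25 in B16-D-733 (limma adjusted p = 0.0203) and 0.93 in B16-D-735 (limma adjusted p = 0.0260), all past the test, and 0.61 in B16-D-739 (limma adjusted p = 0.177). In the first pair of lines that fit rests on 1 undated array each. With the mean of both probes the B16-D difference was 1.64 and passed (limma adjusted p = 0.0176), and in all it passed in 4 of 19 alternatives. The second probe, of another transcript of the gene, differed from B16-M by 2.11 in B16-D, 1.19 in B16-D-733, 0.59 in B16-D-735 and 0.69 in B16-D-739. The leukemia arrays stood higher still, at 3.29, 5.05, 4.58 and 4.36 in M0-p20 and 3.34, 4.04 and 4.28 in J365-p20, with a difference between them of -0.44 (SE 0.43, limma adjusted p = 0.975).

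Cdkn1b (p27, held down in cycling cells by Skp2-dependent degradation of the protein) was at 3.22, 3.22 and 3.36 in B16-M. It was at 2.90, 3.099 and 2.86 in B16-D, 2.59, 3.01, 2.94 and 2.89 in B16-D-733, 2.94, 3.14 and 3.17 in B16-D-735 and 2.84, 2.78 and 2.76 in B16-D-739. All dormant arrays lay below B16-M. In the fit without blocks only B16-D-739 passed, falling by 0.48 (SE 0.12, limma adjusted p = 0.0486), and the call was lost in each of the 6 leave-one-out fits (limma adjusted p up to 0.176) and with B16-D-733 replicates 1 and 3 averaged (limma adjusted p = 0.0613). B16-D-733 differed by -0.41 (SE 0.11, limma adjusted p = 0.0527), or -0.58 with the title date as a block, which passed (limma adjusted p = 0.0250), B16-D by -0.31 (limma adjusted p = 0.201) and B16-D-735 by -0.19 (limma adjusted p = 0.547). In the leukemia lines it ran from 2.52 to 3.60.

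In counts, 3 of 8 genes tested fell in B16-D (Cdkn1c, Cdkn2c and Cdkn2d; 3.6% of all genes passed and 1.6% were lower), 2 of 8 in B16-D-733 (Cdkn1c and Cdkn2c; 5.57% passed and 2.39% were lower) and 3 of 8 in B16-D-739 (Cdkn1b, Cdkn1c and Cdkn2c; 3.71% passed and 1.55% were lower). The median difference over the 8 genes was -0.31, -0.34 and -0.24 in these lines and -0.02 in B16-D-735, against -0.04, 0.03, 0.00 and -0.01 over all genes tested. The 8 genes are those above background on at least 3 melanoma arrays, so Cdkn2a and Cdkn2b are outside these counts. Between B16-D and its derivatives B16-D-733 and B16-D-739, limma called 0 of 8 genes in either comparison (background 0.481 and 0.309%), with 0 and 1 of 8 at an unadjusted p under 0.05. B16-D-735 differed from B16-D in 3 of 8 genes, all higher: Cdkn1c as above, Cdkn2c by 0.59 (limma adjusted p = 0.0405) and Cdkn2d by 0.41 (limma adjusted p = 0.0253), where 8% of all genes passed and 4.07% were higher. The last pair was lost without 6 and 3 of the 6 arrays in turn, Cdkn2c also with B16-D-733 replicates 1 and 3 averaged (limma adjusted p = 0.0545) and Cdkn2d with the title date as a block (0.35, limma adjusted p = 0.114). Against the mean of its 2 sister lines, B16-D-735 was higher in Cdkn1c, Cdkn2c (0.54, limma adjusted p = 0.0233) and Mdm2, where 10.9% of all genes passed and 5.31% were higher. With the title date as a block Cdkn1b passed there too (0.34, limma adjusted p = 0.0473).

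**Figure D3:**
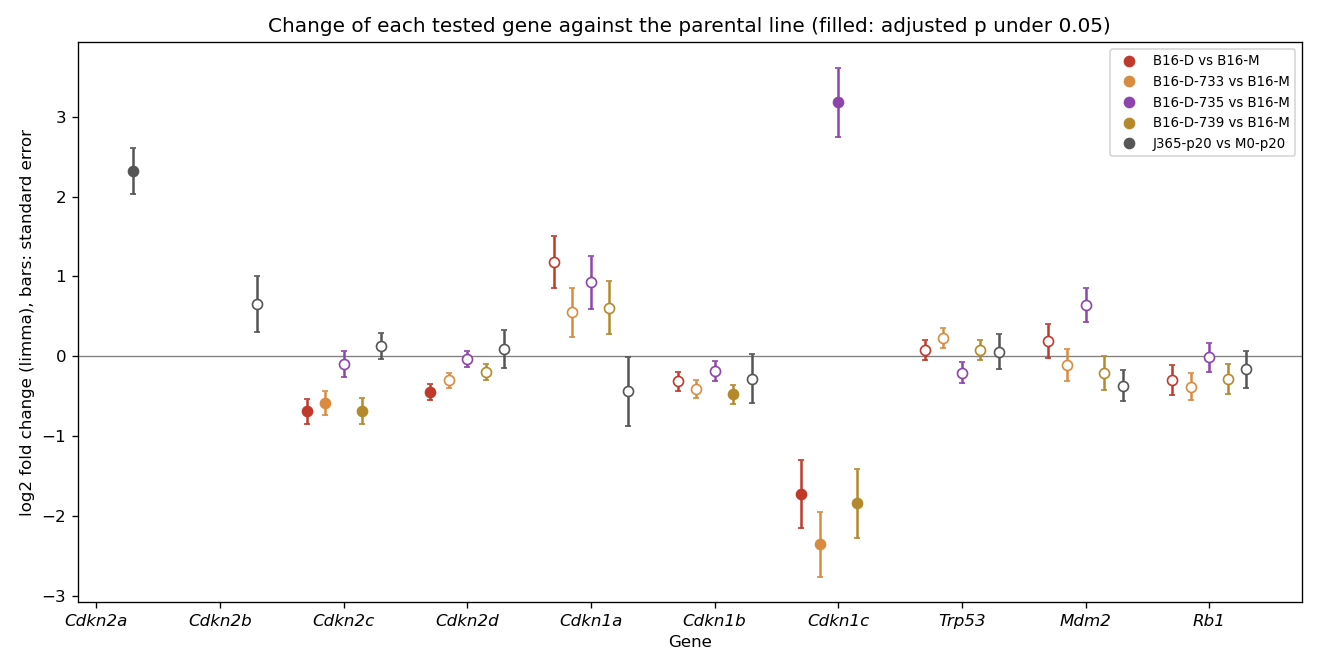
Difference in log2 signal of each tested gene from the parental line, with its standard error (limma), for the 4 dormant melanoma lines against B16-M and for J365-p20 against M0-p20. Filled points passed an adjusted p of 0.05. Cdkn1c lies at 3.18 in B16-D-735 and between -2.36 and -1.73 in the other 3 melanoma lines, and Cdkn2a at 2.32 in J365-p20.

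Trp53 was at 1.09, 1.58 and 1.08 in B16-M and between 1.02 and 1.56 on the dormant melanoma arrays, with differences from B16-M between -0.20 and 0.23 and none past the test. All 3 B16-D-735 arrays (1.02 to 1.06) lay below every other melanoma array used. Against its sister lines B16-D-735 differed by -0.36 (SE 0.11, limma adjusted p = 0.0565), with -0.36, -0.33 and -0.39 within the slides, and did not pass. J365-p20 differed from M0-p20 by 0.06 (SE 0.22, limma adjusted p = 0.987). Array signal is of the transcript and says nothing of p53 protein or its activity. Mdm2, the ubiquitin ligase that p53 induces, was at 4.91, 4.91 and 4.62 in B16-D-735, above all arrays of B16-M (4.24, 4.05 and 4.23), B16-D-733 (3.95 to 4.23) and B16-D-739 (3.88 to 4.04). It was higher in B16-D-735 than in its sister lines by 0.80 (SE 0.18, limma adjusted p = 0.0125), with 0.90, 0.86 and 0.60 within the slides, and the call was lost without B16-D-735 replicate 0 (0.75, limma adjusted p = 0.0579) or 1 (0.75, limma adjusted p = 0.0624). Against B16-M the difference was 0.64 (SE 0.21, limma adjusted p = 0.124) and passed only with the title date as a block (0.64, limma adjusted p = 0.0235). The second Mdm2 probe ran from -1.24 to -0.85 in B16-D-735 and from -2.01 to -1.48 in the sister lines, also without overlap.

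B16-D replicate 0 stood apart from replicates 1 and 3 of its line in several of these genes, and is the array of that line whose title carries no date. It had Cdkn1a at 3.99 against 2.63 and 2.49, Mdm2 at 5.01 against 3.99 and 4.09, and Rb1 at 0.46 against -0.40 and -0.28. Without it, Mdm2 was higher in B16-D-735 than in B16-D by 0.77 (limma adjusted p = 0.00243), in place of 0.45 (limma adjusted p = 0.271) with it. Rb1, the pocket protein that binds E2F factors, was at 0.18, 0.10 and 0.40 in B16-M, and its differences from B16-M lay between -0.38 and -0.01 with none past the test. Without B16-D replicate 0, the B16-D difference was -0.57 and passed (limma adjusted p = 0.0228). B16-D replicate 2, at -0.54, lay below replicates 1 and 3. The second Rb1 probe differed from B16-M by -0.64 in B16-D, -0.80 in B16-D-733, -0.07 in B16-D-735 and -0.38 in B16-D-739.

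Between models, B16-M and M0-p20 differed in 5 of 7 genes tested, where 51.7% of all genes passed and the median of all genes was -0.22. Rb1 was lower in B16-M, with a difference of -3.28 (SE 0.19, 9.69-fold, limma adjusted p = 4.34e-11): M0-p20 had 3.02, 3.83, 3.59 and 3.57. Cdkn1a was lower, with a difference of -2.46 (SE 0.37, 5.52-fold, limma adjusted p = 1.65e-05). These 2 differences, and that of Cdkn2c, which was 0.49 higher (limma adjusted p = 0.00799), were kept in every alternative. Trp53 was 0.53 higher (limma adjusted p = 0.00689) and was lost without B16-M replicate 1 (0.37, limma adjusted p = 0.0653). Mdm2 was lower, with a difference of -0.54 (limma adjusted p = 0.0250) and was lost without B16-M replicate 1, M0-p20 replicate 1 or M0-p20 replicate 2 (limma adjusted p = 0.0509 to 0.0867). The second probes of Rb1 and Cdkn1a lay lower in B16-M as well, with Rb1 at -2.82 to -1.82 against 1.29 to 1.85 in M0-p20. Whether dormancy moved a gene differently in the 2 models was tested as the B16-D change minus the J365-p20 change. Limma called 0 of 7 genes (background 1.36%), with 3 at an unadjusted p under 0.05: Cdkn1a (1.62, limma adjusted p = 0.253), Cdkn2c (-0.82, limma adjusted p = 0.0678) and Cdkn2d (-0.53, limma adjusted p = 0.505). With the title date as a block 2 of the 7 passed, Cdkn1a and Cdkn2c. Cdkn2a could not be tested there, since it was not measurable in the melanoma lines.

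In the leukemia lines the array numbered 0 stood apart from the others of its line in most of these genes. In Cdkn1a it was at 3.29 in M0-p20 against 4.36 to 5.05, and at 3.34 in J365-p20 against 4.04 to 4.28. In Cdkn1b it was at 2.60 against 3.30 to 3.60, and at 2.52 against 3.20 to 3.23. Trp53 went the other way, at 1.11 against 0.51 to 0.63 and at 1.10 against 0.56 to 0.67. Replicate 0 was the lowest array of both lines in 6 of 9 genes (Cdkn1a, Cdkn1b, Cdkn2b, Cdkn2d, Mdm2 and Rb1) and the highest of both in 1. Over all 22946 genes with a value on every array, 19.4% were lowest and 15.1% highest in both. Both arrays lay on slide 2, as did M0-p20 replicate 3, which was at 4.36 in Cdkn1a and 0.51 in Trp53. The labels say nothing of what the number stands for.

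**Figure D4:**
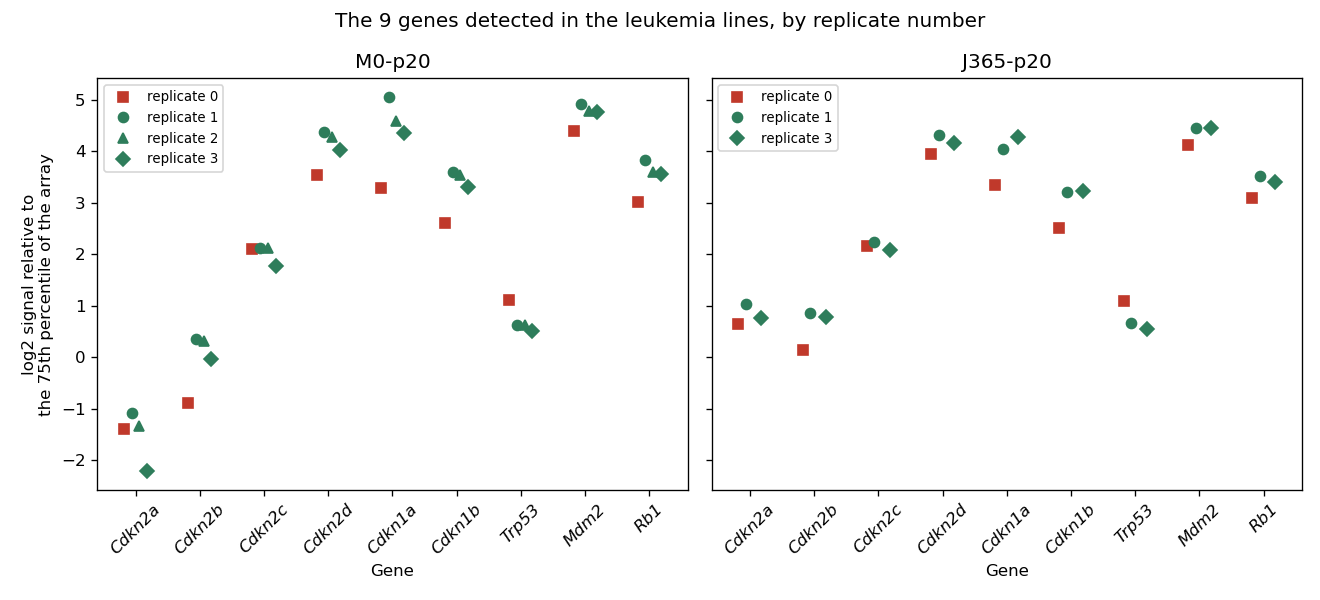
Signal of the 9 genes detected in the leukemia lines on each M0-p20 array (left) and J365-p20 array (right), as log2 relative to the 75th percentile of the array, with replicate 0 in red squares. Replicate 0 lies lowest in Cdkn1a, Cdkn1b, Cdkn2b, Cdkn2d, Mdm2 and Rb1 and highest in Trp53 in both lines, while Cdkn2a separates the lines (-2.22 to -1.08 against 0.64 to 1.04).

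Genes that act around these regulators were described by lists. The shares of all genes that passed, 3.6% in B16-D, 5.57% in B16-D-733, 5.03% in B16-D-735, 3.71% in B16-D-739 and 1.07% in J365-p20, are the background for the counts that follow. Of 16 genes of cyclins, CDKs and the CDK-activating kinase, 0 passed in B16-D (limma, with 4 at an unadjusted p under 0.05). Cdk2, the partner of cyclins E and A, fell by 0.61 in B16-D-733 and 0.70 in B16-D-739, the D-type cyclin Ccnd3 by 0.42 in B16-D-733, and Cdk7, of the CDK-activating kinase, by 0.42 in B16-D-735. Of 17 Rb-family and E2F genes, 1 passed in the 4 comparisons with B16-M, the E2F partner Tfdp2, which fell by 0.98 in B16-D-735 (limma adjusted p = 0.0105). Of 20 E2F target genes, limma called 0 in each of these 4 comparisons, with 4, 7, 2 and 6 at an unadjusted p under 0.05 in B16-D, B16-D-733, B16-D-735 and B16-D-739, and medians of 0.20, 0.24, -0.04 and 0.22. Against its sister lines, B16-D-735 had 5 of the 20 lower and 0 higher, with a list median of -0.29 against -0.02 over all genes, of which 5.55% were lower.

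Of 28 p53 target genes, 25 could be tested in the melanoma lines. Perp, an apoptosis-associated membrane protein of desmosomes, was above background on all 3 B16-M arrays (mean -3.98) and on no array of the 4 dormant lines. It was lower at least 1.71-fold in B16-D, 1.97-fold in B16-D-733, 2.15-fold in B16-D-735 and 1.91-fold in B16-D-739, comparisons that share B16-M. It entered the fit only through the B16-M arrays, so its calls are no test and it is left out of the counts below. Trp53inp1 rose by 1.01 in B16-D, Apaf1 of the apoptosome by 0.44 in B16-D-735, and the stress-induced mTOR inhibitor Ddit4 fell by 1.42 in B16-D-739. The remaining tested targets did not pass against B16-M in the fit without blocks. Of 18 p53 family members and regulators, the nucleolar protein Npm1, which binds Arf, rose by 0.63 in B16-D and 0.56 in B16-D-733, and the checkpoint kinase Chek1 fell by 0.58 in B16-D-735.

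Of 29 tested genes for turnover and regulation of the inhibitors, Myc, which represses several CDK inhibitors, rose by 1.12 in B16-D, 0.94 in B16-D-733 and 0.92 in B16-D-739 (limma adjusted p = 0.0148, 0.0178 and 0.0394). These comparisons share the B16-M arrays, and the Myc calls were kept in 3 of 6, 3 of 7 and 0 of 6 leave-one-out fits. Tbx2, a repressor of Cdkn2a and Cdkn1a, fell by 0.39 in B16-D and by 0.47 in B16-D-733. The first call was kept in 1 of 6 leave-one-out fits and the second in 7 of 7. In B16-D-733 Skp2, the substrate receptor for p27, rose by 0.54, and Tgfb1, the cytokine that induces Cdkn2b, fell by 2.20 (limma adjusted p = 0.00556). The Skp2 call was kept in 0 of 7 leave-one-out fits and that of Tgfb1 in 7 of 7. Tgfb1 was not particular to that line. Its mean was -0.69 in B16-M, -2.09 in B16-D, -1.48 in B16-D-735 and -2.10 in B16-D-739, though these lines did not pass. In B16-D-735 Cbx7, a Polycomb protein that represses the Cdkn2a locus, fell by 1.68 (limma adjusted p = 0.000108) and the TGF-beta mediator Smad3 by 0.36. The Smad3 call was kept in 0 of 6 leave-one-out fits. Of 20 calls in the lists against B16-M, Perp aside, 4 were kept in every leave-one-out fit and 1 in every alternative run, that of Cbx7 in B16-D-735. In J365-p20 against M0-p20, limma called 0 genes of all 6 lists, with 1 of 26 p53 targets, 1 of 20 E2F targets and 2 of 18 p53 regulators at an unadjusted p under 0.05, and 0 in the other 3 lists.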

How the data were processed

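Arrays held 59305 non-control spots, 56605 probes and 22907 named genes. Agilent Feature Extraction (version 10.7.3.1, per the submitters' processing notes) made the deposited intensity values, that is background-corrected spot brightness. The authors' value table held the same values for 100% of spots, unscaled (column medians 14.7 to 145.5). No test for arrays is given in the sources used here. Outlier spots (2468 over all arrays) were left out, and no spot was saturated. Signals were log2 of the processed intensity minus the 75th percentile of non-control spots of the array. The brightest probe by its mean over 23 arrays stood for a gene, and names came from RefSeq through the probe accession.

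Limma (version 3.58.1, R 4.3.3; lmFit and eBayes) was fitted to 16 melanoma arrays, to 7 leukemia arrays and to all 23 for comparisons across models, B16-D replicate 2 being left out, on genes well above background on at least 3 arrays of the fit (3 in each model for the last). Benjamini-Hochberg adjustment ran over all genes of a fit (24310, 22967 and 20817), with a threshold of 0.05. Precision is limited by the number of arrays. The script was tested on simulated data. Bounds compare a mean with the lowest signal well above background, or the dim probe's own signal where that is higher, per array. Same-numbered arrays deviated together for B16-M with B16-D-733 (r = 0.35 to 0.82) and B16-D-739 (0.58 to 0.83). Only for these lines were the numbers taken as pairs when the replicate block, an alternative, was read. The same-numbered arrays of B16-M and B16-D-739 also shared a slide, so number and slide cannot be told apart there. With B16-D-733, only replicate 2 shared a slide with B16-M, and that pair had the highest r (0.82). The main fits used no pairing or block, so the p-values in the results above are unpaired unless a block is named.

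Members and lists were chosen with earlier results of these data known. All 10 members are named, of each list at most 3 genes past the threshold in each comparison with the parental line, and the 3 genes most alike to a member called in the melanoma lines. Tbx2 in B16-D-733 is named beyond that limit. Alternatives were another B16-D set, background correction (normexp, offset 50, on the median signal, the mean not being used here), normalization, filter, probe choice, slide or replicate block, arrays in the fit, and each array left out. The title date as a block and the average of B16-D-733 replicates 1 and 3 were added after seeing the data.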

Additional observations from a re-analysis of the deposited data

Results flagged for a closer look

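Cdkn2c in M0-p20 replicate 3 was at 1.77 (log2 relative to the 75th percentile of the array), while the other 3 arrays of the line lay between 2.10 and 2.13. The gap to the nearest was 0.919 of the range of the line. It was 1 such value among 30 examined, in lines with 4 arrays, and chance alone flags about 1 in 20.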

How the results depend on the processing

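No difference of a gene named above changed direction past the test under any alternative. Among single-gene calls 299 alternatives kept the call and 100 lost it. Counts of the 10 genes called moved by more than 1.5 times as follows. With no filter on low signal they were 0 in B16-D, 1 in B16-D-733 and 0 in B16-D-739 against B16-M, 1 in B16-D-735 against B16-D, 8 in B16-M against M0-p20 and 1 for the difference of changes (Cdkn2a). With only the lines compared in the fit, which leaves fewer arrays, they were 0 in B16-D, 1 in B16-D-733 and 1 in B16-D-739 against B16-M and 1 in B16-D-735 against B16-D. Requiring signal above background on every array left 0 in B16-D-735 against B16-M, as Cdkn1c was then not tested. Quantile normalization gave 4 in B16-D-733, normexp 1 in B16-D, 1 fit of all 23 arrays 1 in B16-D, and inclusion of B16-D replicate 2 gave 1 in B16-D-739. The difference of changes had 1 (Cdkn2c) with B16-D replicate 2, with normexp, with slide as a block and with the replicate block. Chosen after seeing the data, the title date as a block gave 4 in B16-D-733 and 3 in B16-D-735 against B16-M and 2 for the difference of changes, and B16-D-733 replicates 1 and 3 averaged gave 1 in B16-D-733.

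The replicate block left 0 in J365-p20 against M0-p20, where Cdkn2a was 2.38 higher (limma adjusted p = 0.0591). There, same-numbered arrays correlated at 0.51 (replicate 0, both on slide 2), -0.04 and 0.16 (on different slides). In B16-D against B16-M the block ended the calls of Cdkn1c (-1.72, limma adjusted p = 0.0687) and Cdkn2d (-0.46, limma adjusted p = 0.0540) and gave one for Cdkn1a (1.35, limma adjusted p = 0.0203), with 2 shared numbers correlating at 0.28 and 0.04. For B16-D-733 and B16-D-739, the lines taken as paired, it ended no call.

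Leaving out each array in turn gave counts of 0 to 2 in B16-D, 1 to 2 in B16-D-733, 1 in B16-D-735 and 0 to 1 in B16-D-739 against B16-M, 1 to 4 in B16-D-735 against B16-D, 1 to 3 in B16-D-735 against its sister lines, 0 to 1 in J365-p20 against M0-p20, 3 to 5 in B16-M against M0-p20 and 0 to 1 for the difference of changes, where Cdkn1a passed without M0-p20 replicate 0 (limma adjusted p = 0.041). Numbers of all genes called moved as well: against B16-M, between 86 and 1248 in B16-D (876 as reported), 737 and 2203 in B16-D-733 (1355), 530 and 2154 in B16-D-735 (1224) and 462 and 1485 in B16-D-739 (901), 312 and 2797 (1946) in B16-D-735 against B16-D, 1505 and 4170 (2641) against its sister lines, 53 and 150 (117) in B16-D-733 and 1 and 102 (75) in B16-D-739 against B16-D, 103 and 569 (245) in J365-p20 against M0-p20, and 126 and 534 (284) for the difference of changes. Without B16-M replicate 1, B16-D had 413 against B16-M, and without J365-p20 replicate 1 that line had 118 against M0-p20. Without the filter, on 45616 genes, the median of all genes moved by up to 0.20 (B16-D-735 against B16-D). Quantile normalization and normexp moved it by at most 0.09 in the 11 comparisons. Near background, Cdkn1c, Cdkn2a and Cdkn2b have only bounds.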

Other observations

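The genes around Cdkn2a and Cdkn2b were read by position, a choice made after the values of that pair were known. RefSeq places 5 protein-coding genes with probes on either side of it on chromosome 4. Mtap, the methionine salvage enzyme next to Cdkn2a, was well above background in all 7 lines, with means of 4.36 in B16-M, 4.60 in B16-D, 4.75 in B16-D-733, 4.46 in B16-D-735, 4.74 in B16-D-739, 3.86 in M0-p20 and 4.63 in J365-p20. On the side of Cdkn2b, Dmrta1 was not detected in any line (-7.02 to -6.55), and Zfp352, the next gene, was detected in all 7 (1.41 to 2.85). In the melanoma lines the undetected pair and Dmrta1 thus lie between Mtap and Zfp352, both with signal. On the side of Cdkn2b that rests on Zfp352 alone, as Elavl2, Izumo3 and Tusc1 beyond it were not detected in any line. Of the 10 neighbours, 5 were detected in at least 1 melanoma line and 5 in at least 1 leukemia line, among them the type I interferon genes Ifna5, Ifna4 and Ifna1 (-5.26 to -2.91), which have near-identical copies.

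Among the genes most like a member over the 16 melanoma arrays, described without a test, Cdkn2c had Ccdc13 (r = 0.96), the interferon signal transducer Stat2 (0.95) and the kinase Frk (0.95). Mdm2 had the lysosomal receptor Scarb2 (0.94), Tor1aip2 (0.93) and Nus1 (0.93), Cdkn2d had Cd99l2 (0.93), Tspyl1 (0.90) and Susd3 (0.90), and Cdkn1b had Mettl25 (0.88), Aldoc (0.88) and Echdc1 (0.87).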
